A study of Mus musculus with 17 samples.

Results

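The probe sets described here are those whose signal was lost in IgM+CD138+ spleen cells. They were chosen from the measured values: a probe set belongs if its mean log2 value over the 6 arrays of IgM+CD138+ cells lay at least 2 below its mean over the 11 arrays of other B cells, a drop of at least 4-fold. Listed rows 12601 to 12800, 30201 to 30300 and 31101 to 31200 of the deposited table were left out, as they are dense in probe sets high in IgM+CD138+ cells, and no probe set inside them reached the limit. The choice gave 103 of the 32953 probe sets with values outside these ranges (0.313%), or of 33327 with values in all. Listed rows 39669 and 39671 held identical values on every array, so the 103 hold 102 distinct measurements.

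All mice lacked the LDL receptor (LDL-R KO), which makes them prone to atherosclerosis, and had eaten a high cholesterol diet for 12 weeks. Control mice carried this background alone, and the other genotype was c-myb h/h on the same background. Myb is a transcription factor needed for the development of blood cells. The title of the series speaks of a deficiency of myb, and the sources used here give neither the age of the mice nor more on the h allele. From each genotype IgM+CD138+, B220+CD23+ and B220+CD23-IgM+ cells were sorted from spleen, with 3 arrays per group except control B220+CD23-IgM+ cells with 2. The series' design text describes separate mice within a group, and does not say which populations came from the same mouse.

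CD138 (syndecan-1) marks cells that have turned to antibody secretion, and CD23, a low-affinity IgE receptor, marks follicular B cells. CD23-negative IgM+ B cells of the spleen include marginal zone and immature cells. When a B cell becomes a plasma cell, the repressor Blimp-1 shuts down much of the B cell programme, including Pax5 and the class II antigen presentation machinery, while secretion genes come on. B220 itself falls on plasma cells. These are background facts. The IDs listed in the deposited table did not match its values, so no gene could be read from a row. Probe sets listed under ribosomal, proteasome, splicing and translation initiation genes had a mean that differed by -0.45 log2 from that of probe sets listed under olfactory, vomeronasal, keratin and defensin genes, which are silent in most tissues. A shift of the values that grew along the list to 370 rows turned this difference into 1.18, and shifts farther than 100 rows from it reached 0.84 at the highest. The sorted populations therefore could not be checked against the genes of CD138, CD23 or IgM, nor the genotype against Myb, and probe sets are named here by listed row.

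In the B220+ populations these probe sets were bright. The mean log2 value over the 103 ran from 9.33 to 9.42 on the 6 arrays of B220+CD23+ cells and from 9.18 to 9.32 on the 5 arrays of B220+CD23-IgM+ cells. Their median stood between the 95.3th and the 96.8th percentile of all probe sets on these arrays. A percentile reflects the brightness of each probe set as well as its RNA, so it places the signal on the array's scale and does not rank genes.

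**Figure D1:**
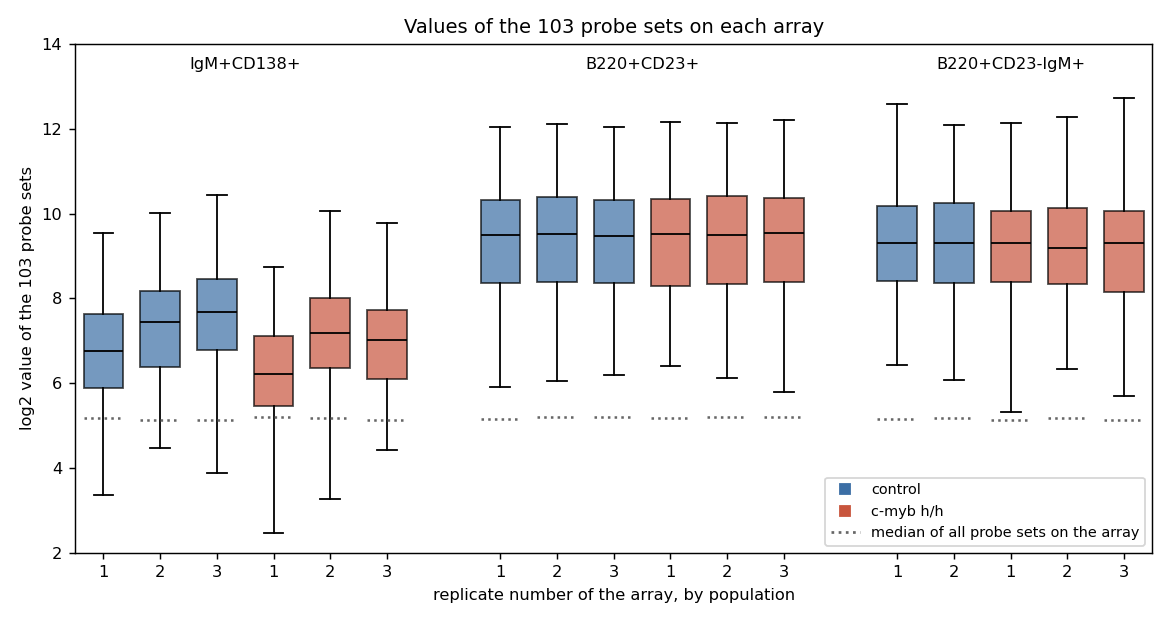
Box plots of the log2 values of the 103 probe sets on each of the 17 arrays (box, quartiles; line, median; whiskers, lowest and highest), grouped by population and coloured by genotype, with the median of all probe sets on each array dotted. The IgM+CD138+ boxes lie lower and differ from array to array, with c-myb h/h replicate 1 lowest at a median of 6.22 and control replicate 3 highest at 7.67.

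Over the 103 the rule's difference ran from -3.10 to -2.01 with a median of -2.23, which corresponds to 21.3% of the linear B220+ signal remaining. The values on which these figures rest chose the probe sets, so they carry no test. Of the 103, 24 were at or below -2.5 and 79 lay between this and the limit. In IgM+CD138+ arrays their mean percentiles had a median of 77.9, and between 1 and 19 of the 103 fell below the median of all probe sets on an array. No measure of background was used, so whether a probe set was still detected was not tested. The members just inside the limit were rows 34042 (-2.007), 34762 (-2.007) and 22622 (-2.005), and the probe sets just outside were rows 34425 (-1.997), 6953 (-1.993) and 35255 (-1.993). In 93 of the 103 every IgM+CD138+ array lay below every B220+ array, and in 10 the arrays overlapped. This count uses the contrast that chose the probe sets and has no share of all probe sets beside it, so it is a description only.

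The deepest drop was at listed row 21638. It read 4.96, 6.05 and 6.09 on the control IgM+CD138+ arrays and 4.98, 5.96 and 5.65 on the c-myb h/h ones. In B220+CD23+ cells it read 8.57, 8.42 and 8.38 in control mice and 8.85, 8.97 and 9.03 in c-myb h/h mice. In B220+CD23-IgM+ cells the values were 8.75 and 8.37 in control mice and 8.79, 8.80 and 8.92 in c-myb h/h mice. All IgM+CD138+ arrays were thus low and all B220+ arrays high, without overlap, and the remaining signal was 14.4% in control mice and 9.71% in c-myb h/h mice. The next 4 were rows 30790 (-2.87), 16842 (-2.86), 18152 (-2.81) and 17817 (-2.79). Row 30790, the lowest in c-myb h/h mice at 9.46% remaining, read 8.58 ± 0.43 (SD, n = 3) in control mice and 7.28 ± 0.86 (SD, n = 3) in c-myb h/h IgM+CD138+ cells, against 11.02 ± 0.07 and 10.94 ± 0.08 in B220+CD23+ cells (SD, n = 3 each).

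The choice was repeated in each genotype alone and read in the other. Of 72 probe sets that met the limit in control arrays alone, all 72 were at least 1 log2 lower in the c-myb h/h arrays and 62 met the limit there too, with a held-out median of -2.40. Of 142 chosen in c-myb h/h arrays alone, 139 were at least 1 log2 lower in control arrays and 62 met the limit, with a median of -1.94. Of these lists 66 and 99 probe sets, in that order, are among the 103. The genotypes share no arrays. With both genotypes together, 2.59% of all probe sets outside the left-out ranges were at least 1 log2 lower and 0.313% met the limit. The shares within each genotype are not given, and these counts are a description.

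The remaining level differed widely between IgM+CD138+ arrays, and the 103 probe sets moved together. The mean over the 103 was 6.73, 7.34 and 7.62 on the control arrays and 6.23, 7.14 and 7.03 on the c-myb h/h arrays, in order of replicate number. Relative to the B220+ arrays of the same genotype, the median linear signal remaining was 17.1%, 24.7% and 30.9% in control mice and 12.6%, 22.7% and 20.6% in c-myb h/h mice. Replicate 1 of each genotype thus retained least. Among the 6 arrays c-myb h/h replicate 1 was lowest for 87 of the 103 probe sets, against 16.0% of all probe sets with values, and control replicate 3 was highest for 81, against 15.7%. Replicate 1 was lowest within each genotype for 87 probe sets (84.5% of the 103, against 13.8% of all).

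The spread of the 103 between arrays of a group was largest in IgM+CD138+ cells. Their median standard deviation was 0.50 in control mice and 0.51 in c-myb h/h IgM+CD138+ arrays (all probe sets, 0.20 and 0.19). It was 0.11 in B220+CD23+ cells of either genotype (all probe sets, 0.15 and 0.14), and 0.21 and 0.19 in B220+CD23-IgM+ cells (0.12 and 0.15). Deviations from the group mean over the 6 IgM+CD138+ arrays correlated between pairs of the 103 with a median r of 0.84, given as a description because all pairs share the same arrays. Among 244 probe sets at least 2 log2 higher in IgM+CD138+ cells outside the left-out ranges the corresponding median was 0.11, and among 179 such probe sets inside the ranges 0.06.

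Other signals moved with the remaining level. The mean of the 244 raised probe sets was 9.04, 8.90 and 8.85 on control and 9.02, 8.96 and 8.95 on c-myb h/h IgM+CD138+ arrays, so within each genotype it was highest in replicate 1, where the 103 were lowest. A further 751 probe sets between 1 and 2 log2 lower in IgM+CD138+ cells averaged 6.68, 6.91 and 7.13 in control mice and 6.56, 6.87 and 6.87 in c-myb h/h arrays, lowest in replicate 1 again. The 179 raised probe sets of the left-out ranges did not follow the opposite course, at 11.07, 11.19 and 11.28 in control mice and 10.81, 10.90 and 11.18 in c-myb h/h arrays. Array medians over all probe sets differed little, from 5.13 to 5.20 on these 6 arrays. In sorted bulk samples, fewer cells with a transcript and less RNA per cell cannot be told apart. The part of these other signals in the movement of the 103 was not tested.

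**Figure D2:**
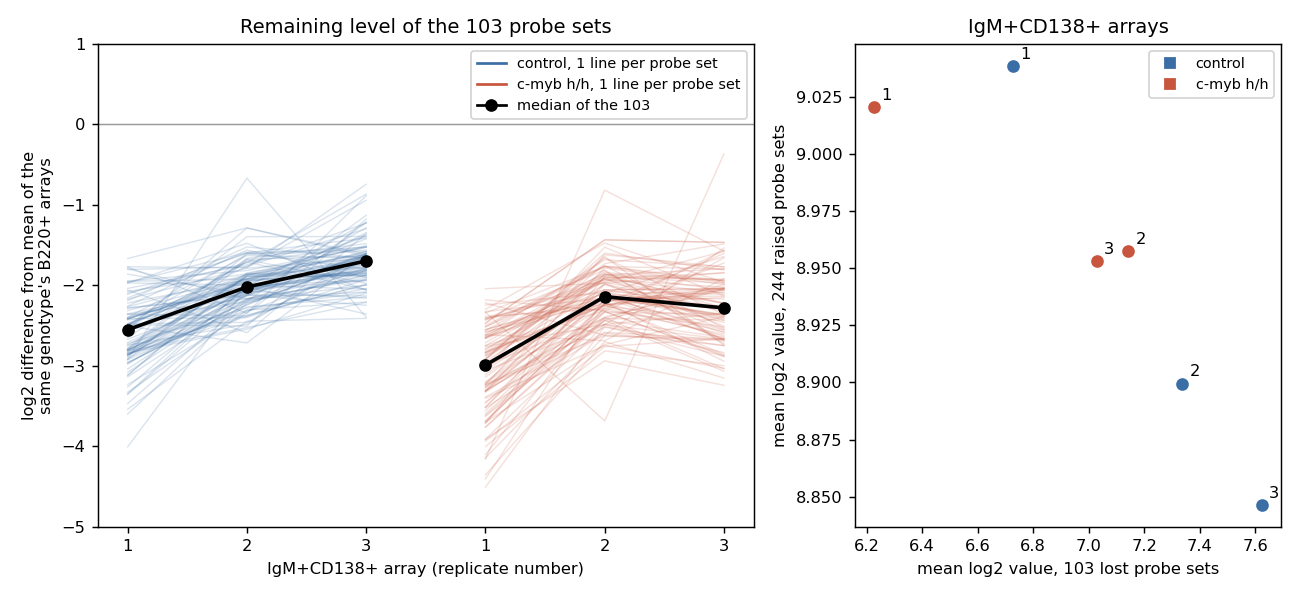
Left, the log2 difference of each of the 103 probe sets on each IgM+CD138+ array from its mean over the B220+ arrays of the same genotype, 1 thin line per probe set with the median in black; lines only join values of a probe set, as replicates have no order. Right, for the same 6 arrays, the mean log2 value of the 103 against that of the 244 raised probe sets outside the left-out ranges, labelled by replicate number: the array with the highest mean of the 103 (7.62) has the lowest of the 244 (8.85).

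CD23-negative were next compared with CD23-positive B cells, to ask whether what is lost in IgM+CD138+ cells is shared evenly by the B220+ populations. The rule pooled both B220+ populations, so a probe set could enter through 1 of them. Taken against each population alone, 54 of the 103 met the limit against both, 35 against CD23-positive cells only and 14 against CD23-negative cells only. Counts and shares of the 103 by their CD23 difference therefore draw on values that chose them, and are given as a description. The same holds for genotype, since the rule pooled both genotypes. Of the 103, 71 differed by less than 0.5 log2 over the mean of the genotypes, a count without the share of all tested beside it. The median difference, B220+CD23-IgM+ minus B220+CD23+, was -0.10 in control mice and -0.22 in c-myb h/h mice (-0.01 and -0.004 over all 19350 probe sets tested). These medians were -0.19 and -0.40 with the arrays centred and scaled, and the control one was -0.06 without replicate 1 of the control B220+CD23-IgM+ cells and did not keep its sign in every alternative. Of the 103, 59 were lower (57.3%, against 33.4% of all tested) and 27 higher (26.2%, against 30.4%) in CD23-negative cells of both genotypes.

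The test was limma across all probe sets with all 17 arrays in the fit, called at a Benjamini-Hochberg adjusted p under 0.05. All 103 passed the filter on low values on the B220+ arrays, where they are bright. Most also passed it on IgM+CD138+ arrays, since only 5 and 1 lay below the array's median on control replicates 2 and 3. In control mice 5 of the 103 were called, 3 higher and 2 lower in CD23-negative cells, where 1.52% of all tested were called (1.18% higher and 0.341% lower). For c-myb h/h mice 10 were called, 3 higher and 7 lower, where 2.94% of all tested were called (2.03% higher and 0.91% lower). All 5 called in control mice were also called in c-myb h/h mice. At an unadjusted limma p under 0.05 the counts were 11 higher and 9 lower in control mice (10.5% of all tested in either direction, 6.35% higher and 4.11% lower), and 7 higher and 23 lower with c-myb h/h (16.6% of all tested, 9.83% higher and 6.76% lower). Every CD23-negative array was above every CD23-positive one for 20 and below for 28 in control mice (14.3% and 14.8% of all tested), and for 18 and 51 with c-myb h/h (13.6% and 13.1%).

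Single arrays moved these counts. In control mice the 5 calls became 1 without replicate 1 of the control B220+CD23-IgM+ cells, 3 without replicate 2 or 3 of the control B220+CD23+ cells and 9 without replicate 1 of the control IgM+CD138+ cells. With c-myb h/h the 10 calls became 6 without replicate 2 of its B220+CD23+ cells, and 16 and 17 without replicate 1 of the control and of the c-myb h/h IgM+CD138+ cells. These altered fits come without the share of all tested called in the same fit. Their counts show how far the calls depend on single arrays, and nothing particular to the lost probe sets.

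The spread that this fit gives the 103 includes their large spread in IgM+CD138+ cells. With only the 11 B220+ arrays in the fit, an alternative chosen after seeing the data, 13 were called in control mice (4 higher and 9 lower, against 1.81% of all tested, 1.25% higher and 0.563% lower) and 34 in c-myb h/h mice (5 higher and 29 lower, against 4.21% of all tested, 2.48% higher and 1.74% lower). Of the 13 in control mice, 11 were among the 34, all in the same direction (84.6% of the control list and 32.4% of the c-myb h/h list). The 5 and the 10 calls of the fit with all arrays were among them. Among the 11 shared rows, only rows 20262 and 37114 met the limit against both B220+ populations, and the others against 1 alone. The CD23 tests of those others thus draw on values that chose them, and the shared direction is a description. The overlap among all tested is not given. The genotypes supply different arrays to the comparison, but the choice pooled both. Whether the CD23 difference itself differed by genotype was tested with an interaction term. With all arrays 0 of the 103 were called by limma, and 0 of all 19350 tested. At an unadjusted limma p under 0.05 the count was 1 of the 103, against 3.88% of all tested. With the B220+ arrays alone 0 of the 103 and 0 of all tested were called, so the counts of 0 are not particular to the 103.

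**Figure D3:**
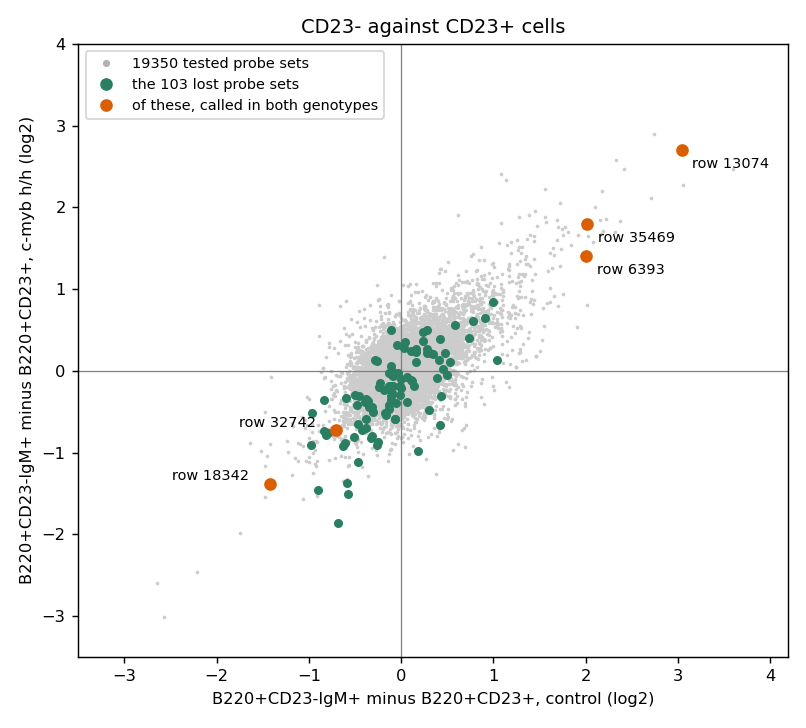
Each point is a probe set, with its log2 difference between B220+CD23-IgM+ and B220+CD23+ cells in control mice (x axis) and in c-myb h/h mice (y axis). The 103 lost probe sets are green, those called in both genotypes orange with their listed row, and all 19350 tested grey; 3 of the 5 called lie far to the upper right, and most green points sit near or below 0.

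Among the 103, 3 were called higher in CD23-negative cells of both genotypes, with the CD23-positive arrays lying between those and the IgM+CD138+ arrays or overlapping the latter. All 3 are among the 103 through CD23-negative cells: against CD23-positive cells alone the IgM+CD138+ mean differed by -0.77 at row 13074, -1.45 at row 35469 and -1.27 at row 6393, short of the limit. Their CD23 tests thus draw on the values that chose them. The largest difference was at listed row 13074. In B220+CD23-IgM+ cells it read 9.95 and 9.35 in control mice and 9.66, 9.73 and 10.28 in c-myb h/h mice. In B220+CD23+ cells it read 6.66, 6.64 and 6.54 in control mice and 7.16, 7.11 and 7.28 in c-myb h/h mice. On the IgM+CD138+ arrays it read 6.03, 6.06 and 6.88 in control mice and 5.26, 6.56 and 5.99 in c-myb h/h mice. CD23-negative arrays were thus all above 9 while control CD23-positive arrays overlapped with those of IgM+CD138+ cells. The CD23-negative arrays were higher by 3.04 log2 (SE 0.32; limma adjusted p = 0.000198) in control mice and 2.71 log2 (SE 0.29; limma adjusted p = 0.000149) in c-myb h/h mice, and the call held in each of the 26 alternatives in either genotype.

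At listed row 35469 the CD23-negative arrays were again the highest. It read 9.44 and 8.21 in control mice and 9.21, 9.23 and 9.92 in c-myb h/h CD23-negative cells, against 7.27, 6.32 and 6.84 and then 7.71, 7.65 and 7.61 in CD23-positive cells, and lay between 5.54 and 6.35 on the IgM+CD138+ arrays. The difference was 2.01 log2 (limma adjusted p = 0.00689) in control mice and 1.80 log2 (limma adjusted p = 0.00432) in c-myb h/h mice. The control call was lost without replicate 1 of the control B220+CD23-IgM+ cells (limma adjusted p = 0.135), or with only the compared groups in the fit (0.0784).

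Listed row 6393 was the least secure of the 3. It read 9.18 and 8.30 in control mice and 9.16, 9.49 and 9.47 in c-myb h/h CD23-negative cells. In CD23-positive cells it read 7.36, 6.31 and 6.51 in control mice and 7.83, 7.93 and 8.15 in c-myb h/h mice. The groups did not overlap, and the differences were 2.01 log2 (limma adjusted p = 0.0166) and 1.41 log2 (limma adjusted p = 0.0429). The control call was lost without control B220+CD23+ replicate 2 (0.0837) or 3 (0.0797) or replicate 1 of the control B220+CD23-IgM+ cells (0.283), and with only the compared groups in the fit (0.0625). With c-myb h/h the call was lost in 11 of 26 alternatives (limma adjusted p up to 0.129), among them leaving out any of the 6 arrays compared.

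The opposite pattern was largest, among probe sets called in both genotypes, at listed row 18342, where the signal was highest in CD23-positive cells, intermediate in CD23-negative cells and lowest in IgM+CD138+ cells. The B220+CD23+ arrays read 10.49, 10.82 and 10.73 in control mice and 10.38, 10.54 and 10.36 in c-myb h/h mice. In B220+CD23-IgM+ cells it read 9.08 and 9.42 in control mice and 9.19, 9.08 and 8.86 in c-myb h/h mice. The groups did not overlap. The CD23-negative arrays were lower, with differences of -1.43 log2 (SE 0.21; limma adjusted p = 0.00265) in control mice and -1.38 log2 (SE 0.19; limma adjusted p = 0.000986) in c-myb h/h mice, and the control call was lost without replicate 1 of the control B220+CD23-IgM+ cells (limma adjusted p = 0.0631). This row, like row 32742, met the limit against CD23-positive cells but not against CD23-negative cells alone (-1.51 at row 18342 and -1.85 at row 32742).

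Listed row 32742 was lower in CD23-negative cells by a smaller step. It read 9.31 and 9.67 in control mice and 9.42, 9.33 and 9.30 in c-myb h/h CD23-negative cells, and 10.16, 10.28 and 10.12 followed by 10.04, 10.24 and 9.95 in CD23-positive cells. The differences were -0.70 log2 (limma adjusted p = 0.0373) in control mice and -0.73 log2 (limma adjusted p = 0.00975) in c-myb h/h mice. The control call was lost in 9 of 26 alternatives, with limma adjusted p up to 0.474 (without replicate 1 of the control B220+CD23-IgM+ cells), and the call in c-myb h/h mice without c-myb h/h B220+CD23+ replicate 2 (0.0615).

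The other 5 calls, at rows 6964, 20262, 25739, 25740 and 37114, were lower in CD23-negative cells of c-myb h/h mice, with differences from -1.86 to -0.89 log2. Rows 6964, 25739 and 25740 met the limit against CD23-positive cells but not against CD23-negative cells alone (-1.58, -1.46 and -1.40). Their CD23 tests thus draw on the values that chose them, while rows 20262 and 37114 met the limit against both. The call was lost in 15 of 26 alternatives at row 20262 (limma adjusted p up to 0.147) and in 5 at row 25739 (up to 0.124, each time without 1 of the compared arrays), and in 0 of 26 at the other 3. Rows 25738, 25739 and 25740 follow each other in the list. In c-myb h/h mice row 25740 read 8.85, 9.13 and 9.43 in CD23-positive and 7.49, 7.69 and 6.64 in CD23-negative cells (-1.86 log2, limma adjusted p = 0.00461). In control mice it read 8.88, 9.45 and 9.08 and then 7.91 and 8.99, a difference of -0.69 log2 (limma adjusted p = 0.552) with overlapping arrays. Control B220+CD23-IgM+ replicate 1 thus lay near the c-myb h/h values and replicate 2 near the CD23-positive ones. The genotype difference of the step was -1.18 log2 (SE 0.47; limma adjusted p = 0.9997), so it was not shown to differ by genotype.

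The genotypes were compared to ask whether c-myb h/h changes what is lost or what remains. In IgM+CD138+ cells the 103 read lower with c-myb h/h as a group, but array by array the ranges overlapped. The median difference was -0.43 log2 (0.003 over all tested) and 95 of the 103 lay below 0, a count that cannot be read as 95 observations because the probe sets move together by array. Of the 103, 40 were lower and 2 higher at an unadjusted limma p under 0.05 (5.12% and 5.43% of all tested, 10.6% together), and 9 had every c-myb h/h array below every control array (5.2% of all tested) while 2 had every one above (5.63%). After adjustment 1 was called, lower, where 0.191% of all tested were called (0.0982% higher and 0.093% lower).

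That median rested on single arrays. It was -0.15 without c-myb h/h replicate 1, the array where the 103 were lowest, and -0.66 without control replicate 1. It was -0.24 without control replicate 3 and, without replicate 2 or 3 of c-myb h/h, -0.62 or -0.59. Without both arrays numbered 1, an alternative chosen after seeing the data, it was -0.34 and 13 of the 103 were called, all lower. Without control replicate 1 alone 8 were called, and 0 where the fit held the IgM+CD138+ arrays alone. The count was also 0 without each array named below as ending the call, except replicate 2 of the c-myb h/h IgM+CD138+ cells, without which 1 other probe set was called. The counts of these altered fits come without the share of all tested called in the same fit. They show how far the count depends on single arrays, and nothing particular to the 103.

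The called probe set was listed row 18342, described above for its step between CD23-positive and CD23-negative cells. It read 7.79, 8.19 and 8.42 on the control and 6.68, 7.25 and 7.38 on the c-myb h/h IgM+CD138+ arrays, without overlap. The difference was -1.03 log2 (SE 0.19; limma adjusted p = 0.0392). This row met the limit in c-myb h/h arrays alone (-2.63) but not in control arrays alone (-1.97), so its genotype test draws on values that chose it. In B220+CD23+ cells its genotype difference was -0.25 log2 and among B220+CD23-IgM+ cells it was -0.21 log2 (limma adjusted p = 0.919 and 0.844). The call held in 14 of 25 alternatives and was lost without replicate 2 or 3 of the control or replicate 1 or 2 of the c-myb h/h IgM+CD138+ cells, replicate 2 or 3 of the control or any replicate of the c-myb h/h B220+CD23+ cells, or replicate 2 of the B220+CD23-IgM+ cells with c-myb h/h (limma adjusted p from 0.0573 to 0.091), and where the fit held IgM+CD138+ arrays alone (0.505).

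In B220+CD23+ cells the 103 lay on both sides of 0, 49 above and 54 below, with a median difference of -0.04 log2 (-0.006 over all tested) that was 0.01 without replicate 2 of the control arrays. Every c-myb h/h array was above every control array for 22 of the 103 (7.76% of all tested) and below for 14 (8.95%). After adjustment 1 was called, higher, where 0.134% of all tested were called (0.0982% higher and 0.0362% lower), and 5 were higher and 2 lower at an unadjusted p under 0.05 (3.58% and 2.87%, 6.45% together). The probe set called was listed row 10391, which read 9.30, 8.26 and 8.42 in control mice and 10.77, 10.71 and 10.998 in c-myb h/h mice, a difference of 2.16 log2 (SE 0.31; limma adjusted p = 0.0148) with no overlap. It also read 10.90, 10.88 and 11.09 in c-myb h/h against 10.35 and 9.05 in control B220+CD23-IgM+ cells (1.26 log2, limma adjusted p = 0.211), and 7.50, 8.31 and 8.22 against 7.29, 6.91 and 7.34 in the IgM+CD138+ population (0.83 log2, limma adjusted p = 0.344). In each population the c-myb h/h arrays thus lay above the control ones, and only the difference in B220+CD23+ cells passed. That call was lost without control B220+CD23+ replicate 2 (0.0886) or 3 (0.0903) or c-myb h/h replicate 1 (0.057) or 3 (0.0937). Row 10391 met the limit in c-myb h/h arrays alone (-2.88) but not in control arrays alone (-1.90). Its genotype test thus draws on the values that chose it.

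In B220+CD23-IgM+ cells the mean over the 103 was 9.31 and 9.32 on the control arrays and 9.18, 9.19 and 9.18 on the c-myb h/h arrays. The groups did not overlap, and the median difference was -0.11 log2 (-0.0008 over all tested), or -0.06 without replicate 1 of the control arrays. For 41 of the 103 every c-myb h/h array was below every control array (13.9% of all tested) and for 8 every one was above (13.7%). None of the 103 was called by limma after adjustment, a count of 0 where 0.0413% of all tested were called (0.031% higher and 0.0103% lower), and 14 were lower and 2 higher at an unadjusted p under 0.05 (3.83% and 4.82% of all tested, 8.66% together). Without replicate 1 of the control arrays 1 was called, a count given without the share of all tested called in that fit. The comparison rests on 2 control arrays, and it shares the c-myb h/h arrays with the CD23 comparison above, so the 2 are not separate evidence.

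**Figure D4:**
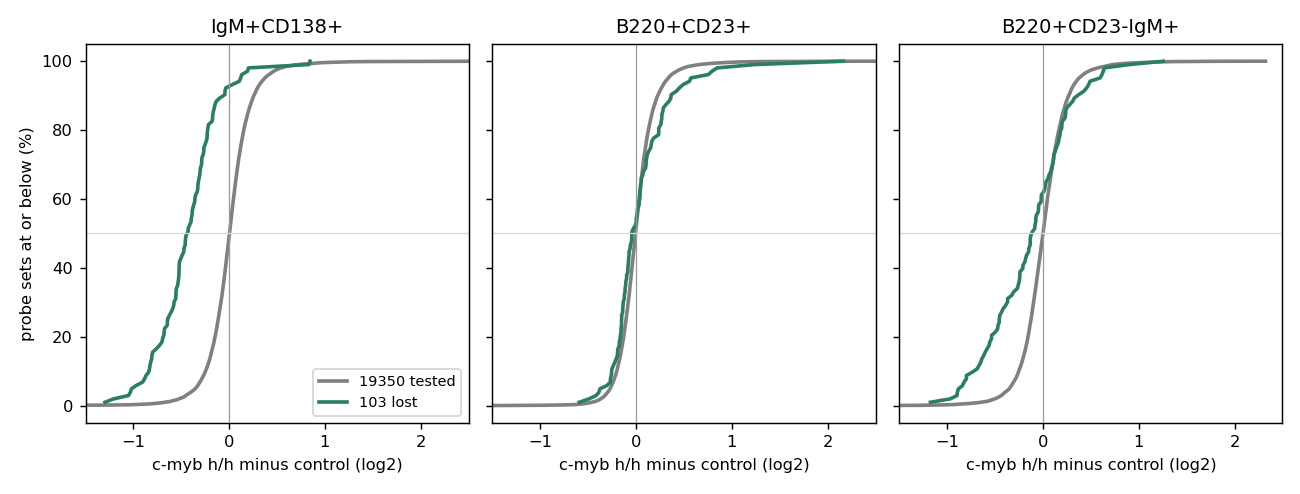
Cumulative share of probe sets (y axis, percent) at or below a given log2 difference between c-myb h/h and control mice (x axis, drawn from -1.5 to 2.5), in each sorted population, for the 103 lost probe sets (green) and all 19350 tested (grey). The green line is shifted to the left in IgM+CD138+ cells (median -0.43), follows the grey one around its middle in B220+CD23+ cells (-0.04), and has a longer left arm in B220+CD23-IgM+ cells (-0.11).

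Whether the depth of the loss itself differed by genotype was tested as the genotype difference in IgM+CD138+ cells minus the mean of those in the B220+ populations. Its median over the 103 was -0.42 log2 (0.003 over all tested), with 91 below 0, and the signal remaining had a median of 23.2% in control mice and 18.8% in c-myb h/h mice. The limma count was 0 of the 103 and 0% of all tested after adjustment, with a lowest adjusted p of 0.402 among the 103, while 23 were lower and 1 higher at an unadjusted p under 0.05 (4.23% and 3.91% of all tested, 8.14% together). The median was -0.13 without replicate 1 of the c-myb h/h IgM+CD138+ cells and -0.62 without the control replicate 1. A difference in the depth of loss by genotype was therefore not detectable for any of the 103 with these arrays.

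The 103 were spread along the list but not evenly. They fell into 78 windows of 100 listed rows, 60 of which held 1, and at most 4 lay in any window (rows 18101 to 18200 and rows 37101 to 37200). Of the 103, 11 (10.7%) had another of them on the row directly before or after. They were rows 18151 and 18152, 25738 to 25740, 26152 and 26153, 26961 and 26962, and 33373 and 33374. Among rows with values outside the left-out ranges 0.313% belong to the 103. That share is for a single row, while the 10.7% counts a neighbour on either side, so the measures are unlike. Neighbouring rows can belong to 1 gene, which cannot be read here, so such rows need not be separate measurements.

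A stretch of 17 rows, 18144 to 18160, was singled out after its values were seen, as the span of that length with the most rows at least 1 log2 lower in IgM+CD138+ cells. It held 3 of the 103, rows 18144 (-2.71), 18151 (-2.10) and 18152 (-2.81). Of its 17 rows 9 were at least 1 log2 lower in IgM+CD138+ cells, against 2.59% of rows with values outside the left-out ranges. The span was chosen for this count, so the count beside that share is a description only. The loss was not uniform along it, since rows 18149 (0.09) and 18150 (0.21) differed little between populations. The platform annotation lists 8 IDs of the class II antigen presentation locus at rows 18282 to 18294, of which the first comes 138 rows after the stretch begins. The shift that best separated the gene families above amounts to 162 rows at that place, toward earlier rows. This is more than the 138 rows, and that shift would place all of these IDs before the stretch begins. Some nearby shifts separated the families almost as well, with a difference of 1.10 for 320 and 1.14 for 340 rows at the list end, against 1.18 for 370. The place of these IDs is therefore not fixed to the row. Whether the stretch holds the class II genes was not tested, and no row in it is given a gene name.

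**Figure D5:**
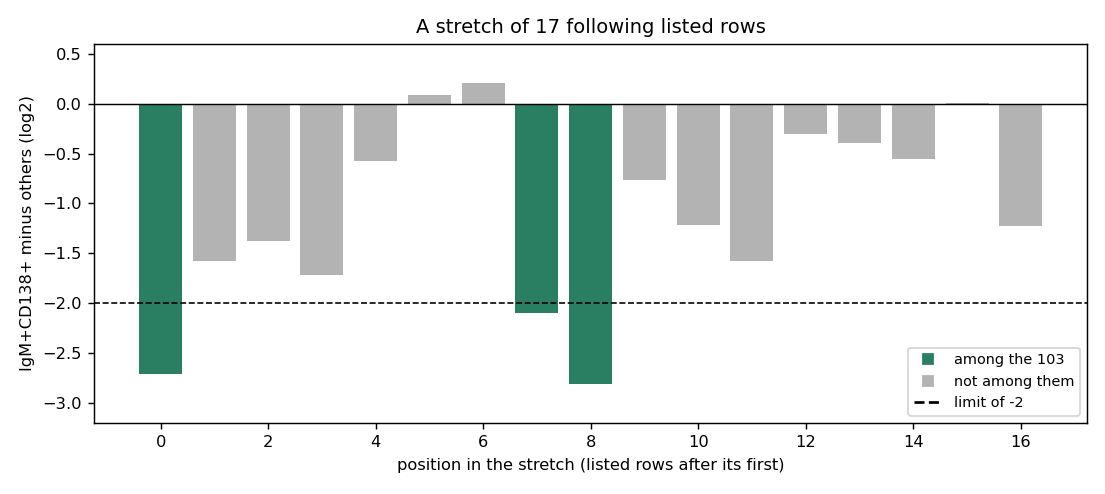
Bars give the log2 difference between the mean of the IgM+CD138+ arrays and the mean of the other arrays for 17 following listed rows, by position in the stretch; rows among the 103 are green, others grey, and the dashed line is the limit of -2. The 3 green bars reach -2.71, -2.10 and -2.81 and have both lowered and level rows between them.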

How the data were processed

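Per the submitters' processing notes, the deposited log2 values came from RMA (version not given), run by the authors on 1 array per sample. The sources used here do not say if the arrays were normalized jointly. Scanner files were not used. Of 41801 listed rows, 8474 were blank in every array and 33327 held values in all 17 arrays. The members, lists and rows were chosen with earlier results of these data known. Percent remaining is 2 to the power of a log2 difference, as a percent of linear signal.

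Tests used R 4.3.3 and its package limma 3.58.1 (lmFit, eBayes, 2-sided), with 6 group means and 11 residual degrees of freedom. The 19350 rows above the 50th percentile of their array in at least 2 arrays were tested, and Benjamini-Hochberg adjustment ran over all of them. The fit was tested on simulated data: of 100 simulated 2-fold changes among 19350 rows 78 were recovered for the CD23 comparison in control mice, 84 in c-myb h/h mice, and 72, 82 and 77 for genotype in IgM+CD138+, B220+CD23+ and B220+CD23-IgM+ cells. The simulation gave every array the same spread and drew rows independently, which the members do not follow. The alternatives covered the brightness filter, centring and scaling, the variance model, array weights, the arrays in the fit, a replicate block, the limit of -1.5 or -2.5, and leaving out each array. Rows were named by rule: the 5 lowest, the 3 on each side of the limit, members called for CD23 in both genotypes and members called by genotype. Rows 25738 to 25740, the other rows called for CD23 in c-myb h/h mice, the neighbouring rows and the stretch were added after their values were seen. The number of arrays limits the precision.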

Additional observations from a re-analysis of the deposited data

How the results depend on the processing

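For CD23-negative against CD23-positive cells of control mice, 5 became 8 with a 75th percentile filter, 13 with array weights, 8 with only the compared groups in the fit, 13 with only the B220+ arrays and 12 without both IgM+CD138+ arrays numbered 1. In c-myb h/h mice 10 became 21, 22, 34 and 30 with array weights, only the compared groups, only the B220+ arrays and without both arrays numbered 1. For genotype in IgM+CD138+ cells 1 became 0 with only the compared groups and 13 without both arrays numbered 1, and in B220+CD23+ cells 1 became 2 with array weights. Leaving out each array in turn gave 1 to 9 and 6 to 17 for CD23 in control and c-myb h/h mice, 0 to 8, 0 to 1 and 0 to 1 for genotype in IgM+CD138+, B220+CD23+ and B220+CD23-IgM+ cells, and 0 to 0 for both differences of genotype effects. The median rule difference stayed between -2.34 and -2.09 and the median percentile between 76.7 and 80.1. The cause was not tested. No named call changed direction. The alternatives with only the B220+ arrays and without both arrays numbered 1 were chosen after seeing the data. Apart from the fit with only the B220+ arrays, counts of altered fits in this section come without the share of all tested called. Such counts show how far the calls depend on the processing, and nothing particular to the lost probe sets. With the arrays centred and scaled the median CD23 differences went from -0.10 to -0.19 in control mice and from -0.22 to -0.40 with c-myb h/h.

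Replicate numbers were not taken as pairs, because deviations of same-numbered arrays from their group means correlated at 0.41 and 0.30 in control mice but at 0.20, 0.07 and 0.04 with c-myb h/h between the B220+ populations. With a replicate block for genotype and number together, which the labels do not say is the mouse, the CD23 counts were 4 in control mice and 12 with c-myb h/h, the median in control mice was 0.0004 with 50 of 103 below 0 and so lost its direction, and both differences of genotype effects had 0. With a replicate block for the number the genotype counts were 2, 1 and 0 in IgM+CD138+, B220+CD23+ and B220+CD23-IgM+ cells, and the median in the last was -0.19 with 71 below 0.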

Other observations

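Control replicate 1 differed from the other control arrays at several probe sets of the set in both B220+ populations, a pattern seen only after the values were examined. Row 10391 read 9.30 there against 8.26 and 8.42 in B220+CD23+ cells, and 10.35 against 9.05 in B220+CD23-IgM+ cells. Row 6393 read 7.36 against 6.31 and 6.51, and 9.18 against 8.30. Row 35469 read 7.27 against 6.32 and 6.84, and 9.44 against 8.21. At all 3 rows the control replicate 1 array lay closest of the control arrays to the c-myb h/h values in B220+CD23+ cells.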
